A study of Drosophila melanogaster with 4 samples.

Results

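The target of rapamycin (TOR) pathway and its transcription factor REPTOR were represented by 9 genes, Tor, raptor, rictor, Rheb, Tsc1, gig, S6k, REPTOR and REPTOR-BP, of 17559 genes in the expression table. They were picked by gene name, with earlier results of these data known. REPTOR and REPTOR-BP stood in the table under the older names CG13624 and CG18619 and were matched by their FlyBase IDs. All 9 passed the filter on low values, as did 8605 genes of the table.

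Wing imaginal discs came from Drosophila melanogaster larvae in the third instar, and their RNA was sequenced. The wing disc is the larval epithelial sac that forms the adult wing and the dorsal thorax. The groups were Paip1 mutant discs and discs of y w control larvae, with 2 libraries each. Paip1 encodes a partner of poly(A)-binding protein, which coats the poly(A) tail of mRNA. The labels name neither the Paip1 allele nor the number of discs per library, and do not say whether the mutant also carries the y and w mutations. Strain and mutation therefore cannot be told apart. Values are in TPM, a length-corrected share of a library, so that levels of different genes can be set side by side.

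TOR is a protein kinase that couples growth to nutrients and acts in separate complexes. TORC1, which contains raptor, promotes translation and ribosome production, while TORC2, which contains rictor, acts on Akt. The Tsc1 and gig (Tsc2) proteins switch off Rheb, the small GTPase that activates TORC1, and in flies this control sets cell and organ size, the wing included. When TORC1 is active it phosphorylates S6k, which promotes growth, and REPTOR, which it holds in the cytoplasm. When TORC1 is inhibited, REPTOR enters the nucleus and drives transcription with its partner REPTOR-BP. Much of this control acts on proteins, which RNA levels do not measure.

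REPTOR transcript was 2.15 times as abundant in Paip1 mutant discs as in control discs, and Tor transcript 0.65 times. Of the 9 genes, 1 rose (REPTOR), 1 fell (Tor) and 7 did not pass the test at an adjusted p under 0.05 (limma on log2(TPM + 1), Benjamini-Hochberg adjustment over all 8605 genes tested). Among all tested genes 44.8% were called, 15.6% higher and 29.1% lower in the mutant, so that a share of 2 in 9 genes was below the background. The call of REPTOR held with each library left out in turn, and that of Tor was lost with any one of the 4 libraries left out. Leaving a library out leaves 1 library in a group, and fewer genes were then called over the whole table as well. The authors' deposited table gave 3 of the 9 genes (REPTOR, Tor and S6k) an adjusted p under 0.05, as it did 40.7% of the tested genes. The TPM values of the groups did not overlap for 5 of the 9 genes, against 77.9% of tested genes. The median log2 fold change was 0.01 over the 9 genes and -0.22 over all tested genes. With libraries scaled by median ratios, where the median over tested genes was -0.05, S6k was called higher as well, making 3 of 9 genes called against 40.5% of all tested genes (20.3% higher and 20.2% lower).

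Beyond these genes, the 4 libraries differed in ways that touch every result below. Paip1 was at 2.37 and 2.22 TPM in mutant replicates 1 and 2, against 112 and 121 TPM in control replicates 1 and 2. All 6 markers of the wing disc epithelium (vg, nub, sd, ap, rn and Dll) were detected, and their summed level was 353 and 410 TPM in mutant discs, against 756 and 729 TPM in control discs. In bulk RNA, fewer cells of a type and less RNA per cell cannot be told apart. The 5 salivary gland secretion genes summed to 2.27 and 2.87 TPM in mutant libraries, and to 3550 TPM in control replicate 1 against 1.72 TPM in control replicate 2, so control replicate 1 stood apart. The 5 muscle markers summed to 155 and 101 TPM in mutant libraries against 13.8 and 22.8 TPM in control libraries, and the 6 hemocyte markers to 19.1 and 28.3 against 1.68 and 8.97 TPM. Among the hemocyte markers Pxn, Hml and NimC1 were called higher, the last 2 passing the filter on low values only through the mutant libraries. He and eater overlapped between the groups, and srp was not tested. The 4 fat body markers summed to 265 and 36.6 TPM in mutant libraries against 1234 and 483 TPM in control libraries. Fbp1 and Fbp2 were called lower and Lsp2 did not pass. Lsp1beta overlapped between the groups (161 and 1.83 TPM in mutant against 204 and 61.35 TPM in control libraries). The sum of the 4 markers of adult muscle precursors went the other way from the muscle markers. It was 20.3 and 27.2 TPM in mutant libraries against 75.1 and 66.5 TPM in control libraries. Of these 4 markers 3 were called lower, while zfh1 overlapped between the groups (5.82 and 7.6 TPM in mutant against 6.41 and 6.76 TPM in control libraries). The 3 tracheal markers summed to 88.5 and 123 TPM in mutant libraries against 178 and 180 TPM in control libraries. Most of each sum was vvl (69.4 and 102 TPM in mutant against 141 and 144 TPM in control libraries). Of the 3 markers trh and vvl were called lower, while btl overlapped between the groups (3.54 and 3.47 TPM in mutant against 3.1 and 3.53 TPM in control libraries). The 4 markers of neurons and glia summed to 10.9 and 11.1 against 18.0 and 14.6 TPM and did not move together. Among them elav was called lower, and Syt1 overlapped between the groups (1.93 and 0.35 TPM in mutant against 4.31 and 1.45 TPM in control libraries). repo and nSyb were under 1 TPM in all 4 libraries and were not tested. The values of repo were higher in mutant libraries (0.95 and 0.91 against 0.08 and 0.13 TPM), and those of nSyb did not fall (0.78 and 0.79 against 0.76 and 0.7 TPM). The part of these cells in the values below was not tested.

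**Figure D1:**
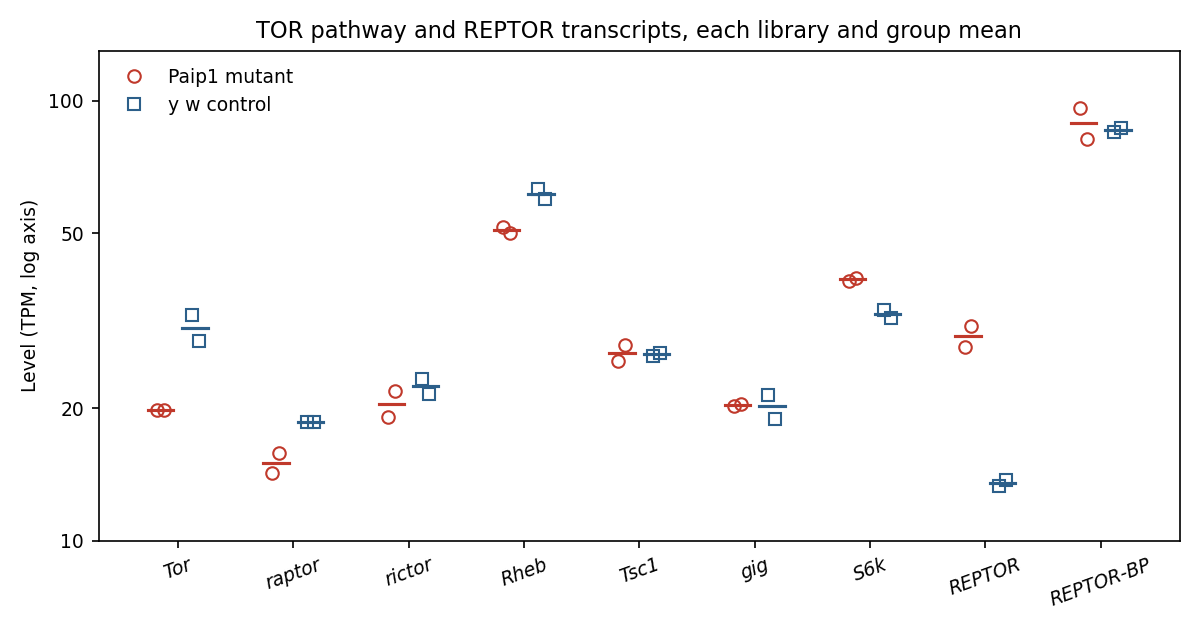
Level of each of the 9 transcripts (TPM, log axis) in each library, with Paip1 mutant libraries as red circles, y w control libraries as blue squares and group means as bars. REPTOR lay at 27.5 and 30.8 TPM in mutant libraries against 13.3 and 13.8 TPM in control libraries, and Tor at 19.8 and 19.8 TPM against 32.6 and 28.4 TPM.

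Neither gene of the Tsc complex, the brake on the pathway, passed the test, and the values of both overlapped between the groups. Tsc1 (chromosome 3R, 24130307 to 24134654, plus strand, dm6 as all positions here) had 25.6 and 27.9 TPM in mutant libraries, against 26.4 and 26.7 TPM in control libraries. The control values lay inside the mutant range. Its log2 fold change was 0.01 with a 95% interval from -0.27 to 0.29 (limma adjusted p = 0.954). gig, the fly Tsc2 gene (chromosome 3L, 20129181 to 20139010, plus strand), had 20.2 and 20.4 TPM in mutant libraries, against 21.4 and 18.9 TPM in control libraries. Here the mutant values lay inside the control range, with a log2 fold change of 0.01 and an interval from -0.29 to 0.31 (limma adjusted p = 0.953). The ratio of Tsc1 to gig, whose proteins form 1 complex, was 1.27 and 1.37 within mutant libraries, against 1.23 and 1.41 within control libraries. Neither gene passed with any 1 library left out or with median-ratio scaling, where their log2 fold changes were 0.18 and 0.18. Their intervals reach to about 0.3 in either direction, so smaller changes were not detectable here.

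Rheb, the GTPase that the Tsc complex switches off, was slightly less abundant in the mutant on the TPM scale, but did not pass. Rheb (chromosome 3R, 5568921 to 5570491, plus strand) had 51.54 and 49.96 TPM in mutant libraries, against 62.93 and 59.95 TPM in control libraries. Both mutant libraries lay below both control libraries, as for 52.8% of all tested genes. The log2 fold change was -0.27 (SE 0.10, limma adjusted p = 0.0865) and its interval ran from -0.54 to -0.005. With median-ratio scaling it was -0.10 (limma adjusted p = 0.472). Rheb had rank 2 by level among the 9 transcripts in both groups, above 73.8% of tested genes in the mutant and 75.8% in the control.

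Tor itself fell. Tor, listed as mTor in the current annotation (chromosome 2L, 13004480 to 13013197, plus strand), encodes the kinase shared by both complexes. It had 19.78 and 19.83 TPM in mutant libraries, against 32.6 and 28.4 TPM in control libraries. The groups did not overlap, and the mutant libraries were close to each other while the control libraries differed by more. The log2 fold change was -0.59 (SE 0.12, limma adjusted p = 0.0159), with an interval from -0.90 to -0.29. A smaller log2 fold change was found in 20.3% of tested genes, so the fall was ordinary in size in this comparison. The call was lost with any one of the 4 libraries left out. Such fits leave 1 library in a group and made fewer calls over all genes, so this loss was not particular to Tor. The log2 fold change of Tor was -0.59 without mutant replicate 1 and -0.60 without mutant replicate 2. It was -0.50 without control replicate 1 and -0.69 without control replicate 2. With median-ratio scaling Tor stayed lower, by a log2 fold change of -0.43 (limma adjusted p = 0.0439). For Tor the authors' deposited table gave -0.45 (adjusted p = 0.0037).

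The subunits that define the TOR complexes did not pass. raptor, the TORC1 scaffold (chromosome X, 6082634 to 6090201, minus strand), had 14.2 and 15.8 TPM in mutant libraries, against 18.6 and 18.6 TPM in control libraries. Both mutant libraries were lower, with a log2 fold change of -0.29 (SE 0.12, limma adjusted p = 0.0957) and an interval from -0.60 to 0.01. In the annotation, 23.5% of the exonic bases of raptor are shared with Mipp2, a gene on the same strand. How reads there were divided is not given in the sources used here, so the level of raptor is uncertain. Mipp2 had 15.9 and 13.9 TPM in mutant libraries, against 18.6 and 16.6 TPM in control libraries. rictor, the TORC2 scaffold (chromosome X, 19252111 to 19261240, minus strand), had 19.1 and 21.9 TPM in mutant libraries, against 23.4 and 21.5 TPM in control libraries. The groups overlapped, and the log2 fold change of -0.13 had an interval from -0.45 to 0.19 (limma adjusted p = 0.438). Its sign turned with median-ratio scaling, to 0.04. The ratio of raptor to rictor within a library was 0.74 and 0.72 in mutant discs, against 0.80 and 0.86 in control discs.

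S6k, the kinase that TORC1 activates and that phosphorylates ribosomal protein S6, was more abundant in both mutant libraries, and its call depended on the scaling. S6k (chromosome 3L, 5797549 to 5810931, minus strand) had 39.0 and 39.5 TPM in mutant libraries, against 33.4 and 32.1 TPM in control libraries. The groups did not overlap, with both mutant libraries higher, as for 25.1% of all tested genes. On the TPM scale the log2 fold change was 0.26 (SE 0.11, limma adjusted p = 0.0991), with an interval from -0.01 to 0.52. It was 0.43 with median-ratio scaling (limma adjusted p = 0.023) and 0.36 with all libraries brought to the same listed sum (limma adjusted p = 0.0414). For S6k the authors' deposited table gave a log2 fold change of 0.43 (adjusted p = 0.00211). Against the Tor transcript of the same library, which no scaling between libraries can alter, S6k stood at 1.97 and 1.99 in mutant discs and at 1.02 and 1.13 in control discs.

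REPTOR showed the largest change of the 9 genes. It encodes a basic leucine zipper (bZIP) transcription factor (chromosome 3R, 24557368 to 24582864, minus strand, 7 annotated transcripts). Its level was 27.5 and 30.8 TPM in mutant libraries, against 13.3 and 13.8 TPM in control libraries. The groups were far apart relative to the spread in either, with means of 29.1 ± 2.28 TPM in mutant discs and 13.5 ± 0.297 TPM in control discs (SD, n = 2 each). The log2 fold change was 1.05 (SE 0.12, limma adjusted p = 0.00324), with an interval from 0.75 to 1.35. It was larger than that of 90.4% of tested genes. The call held without each library in turn, with log2 fold changes from 0.97 to 1.13 and adjusted p from 0.0265 to 0.0453. Without control replicate 1, which carried the salivary gland transcripts, the log2 fold change was 1.03 (limma adjusted p = 0.0453). For REPTOR the authors' deposited table gave a log2 fold change of 1.18 (adjusted p = 9.88e-20).

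REPTOR-BP, the bZIP partner of REPTOR, did not pass the test. REPTOR-BP (chromosome 2L, 10264125 to 10265229, plus strand) had 96.2 and 81.7 TPM in mutant libraries, against 84.7 and 86.7 TPM in control libraries. The control values lay between the mutant values, which were the most spread of any of the 9 genes in TPM. The log2 fold change was 0.05 with an interval from -0.26 to 0.36 (limma adjusted p = 0.766). It was the most abundant of the 9 transcripts in each of the 4 libraries. The interval for REPTOR-BP did not reach that of REPTOR. Within a library the ratio of REPTOR to REPTOR-BP was 0.286 and 0.376 in mutant discs, against 0.157 and 0.159 in control discs.

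**Figure D2:**
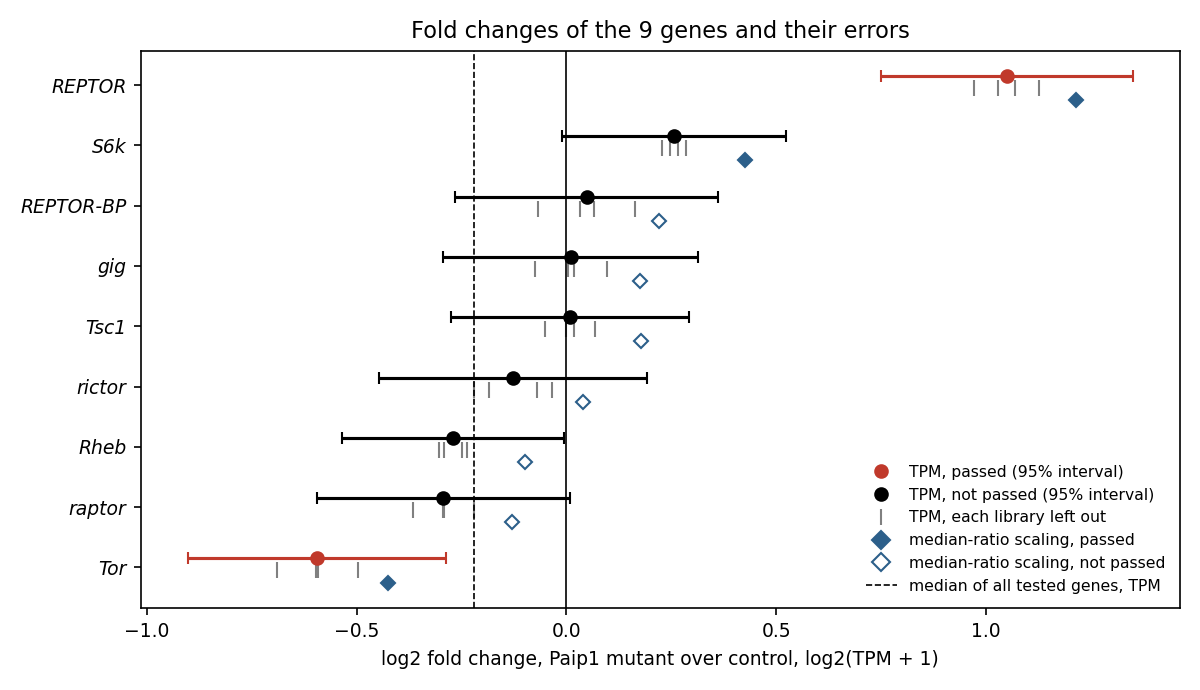
Log2 fold change of Paip1 mutant over control for each gene: circles with 95% intervals on the TPM scale (red where the gene passed), grey ticks with each library left out, and blue diamonds with median-ratio scaling (filled where passed). REPTOR lay at 1.05 and Tor at -0.59, and the dashed line marks the median of all tested genes at -0.22.

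The order of the levels differed between the groups at a few places. In mutant discs it was REPTOR-BP, Rheb, S6k, REPTOR, Tsc1, rictor, gig, Tor and raptor. In control discs it was REPTOR-BP, Rheb, S6k, Tor, Tsc1, rictor, gig, raptor and REPTOR. Among neighbours in the mutant order, the ranges of REPTOR and Tsc1 overlapped, as did those of rictor and gig, and in the control order those of S6k and Tor overlapped. REPTOR had rank 4 of the 9 in the mutant and rank 9 in the control, while Tor had rank 8 in the mutant and rank 4 in the control. REPTOR lay above 57.0% of tested genes in mutant discs and above 31.4% in control discs. The 9 transcripts together summed to 313 and 308 TPM in mutant libraries, against 317 and 307 TPM in control libraries. Of that sum REPTOR took 8.79% and 9.99% in mutant libraries, against 4.21% and 4.48% in control libraries. Tor took 6.32% and 6.44% in mutant libraries, against 10.3% and 9.26% in control libraries.

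**Figure D3:**
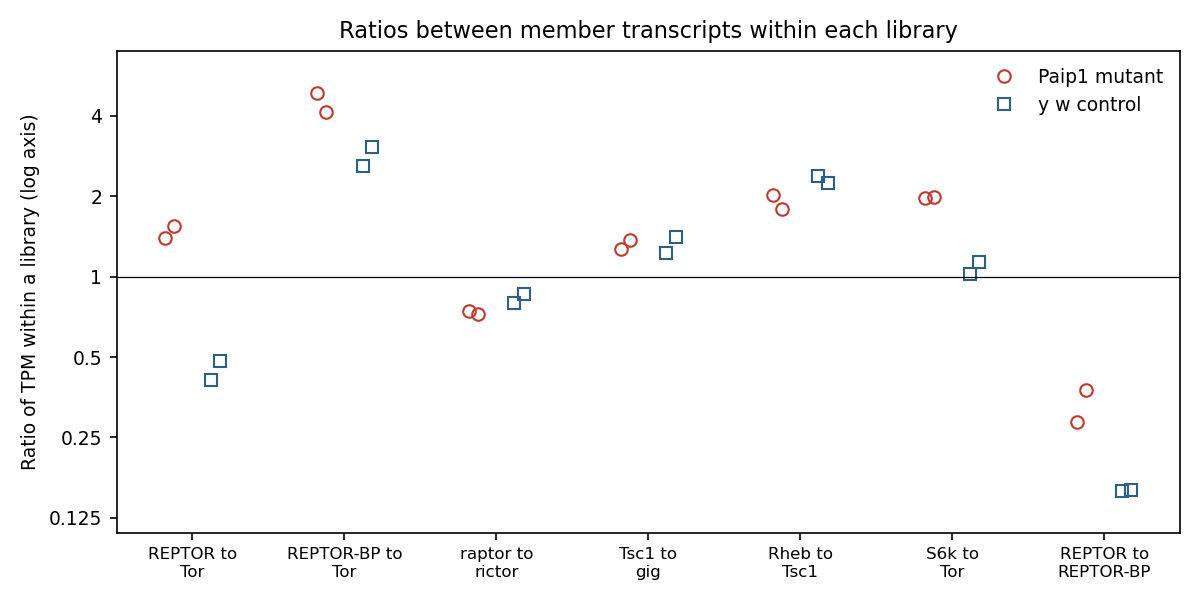
Ratio of the TPM of a pair of genes within each library (log axis), with Paip1 mutant libraries as red circles and y w control libraries as blue squares. The ratio of REPTOR to Tor was 1.39 and 1.55 in mutant libraries against 0.409 and 0.484 in control libraries, while that of Tsc1 to gig overlapped between the groups.

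Ratios within a library do not depend on how libraries are scaled to each other. The ratio of REPTOR to Tor was 1.39 and 1.55 in mutant discs, against 0.409 and 0.484 in control discs, so that the more abundant of the pair was REPTOR in each mutant library and Tor in each control library. That of REPTOR-BP to Tor was 4.86 and 4.12 in mutant discs, against 2.60 and 3.06 in control discs. That of Rheb to Tsc1 was 2.02 and 1.79 in mutant discs, against 2.39 and 2.24 in control discs. Of the 7 ratios computed, which share genes with each other, that of Tsc1 to gig alone overlapped between the groups. The share of other gene pairs whose ratios overlap was not computed. For single genes, the groups did not overlap in 77.9% of tested genes, so a lack of overlap was common here. These ratios were not tested.

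Other genes of the pathway were taken from lists by role. Counts in this and the next paragraphs are limma calls over all tested genes, to be read against 15.6% higher and 29.1% lower among all of these. Those shares do not apply to fits with a library left out. Such fits leave 1 library in a group and called fewer genes over the whole table, in both directions. A call lost in them is therefore not particular to a gene or list. Of 12 tested TORC1 and lysosomal partners 1 rose and 3 fell, with a median log2 fold change of -0.30, while the authors' deposited table had 2 higher and 1 lower. Lst8, a subunit of both TOR complexes, rose to 100.3 ± 3.68 TPM in mutant discs, against 65.5 ± 2.74 TPM in control discs (SD, n = 2 each here and below; log2 fold change 0.61, limma adjusted p = 0.0108). Lst8 thus moved opposite to Tor, the kinase it binds. TBC1d7, the homologue of a mammalian subunit of the Tsc complex, fell to 7.43 ± 0.481 TPM in mutant discs, against 14.1 ± 0.0778 TPM in control discs (log2 fold change -0.84, limma adjusted p = 0.00696). The calls of Lst8 and TBC1d7 were lost without control replicate 1 (adjusted p = 0.107 and 0.0698) and without control replicate 2 (0.0877 and 0.0683). Lamtor1 and Lamtor2, parts of the Ragulator complex that anchors TORC1 at the lysosome, fell with log2 fold changes of -0.53 and -0.62 (limma adjusted p = 0.0348 and 0.0174). The call of Lamtor1 was lost with any 1 library left out (adjusted p from 0.0825 to 0.228) and with median-ratio scaling (0.0611). That of Lamtor2 was lost without mutant replicate 1 (0.0643), control replicate 1 (0.118) or control replicate 2 (0.121). With a library left out, between 0 and 1 gene of this list were called higher and between 0 and 3 lower.

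GATOR proteins relay amino acid supply to TORC1 through the Rag GTPases. Of 10 tested GATOR and amino acid sensing genes 5 fell and 0 rose by limma, also 0 at an unadjusted p under 0.05. The authors' deposited table had 1 of these genes lower and 0 higher. Sec13 and Nup44A, which serve both GATOR2 and the nuclear pore, had 112 ± 17.9 and 46.0 ± 1.94 TPM in mutant discs, against 170.0 ± 16.8 and 60.0 ± 1.43 TPM in control discs (log2 fold changes -0.60 and -0.38, limma adjusted p = 0.0295 and 0.0382). Iml1, of the inhibitory GATOR1 complex, and Wdr24, of GATOR2, fell with log2 fold changes of -0.37 and -0.39 (limma adjusted p = 0.0391 and 0.0434). The remaining gene that fell was Nprl3 of GATOR1 (log2 fold change -0.44, limma adjusted p = 0.044), named after its value was seen. The calls of Iml1 (adjusted p from 0.0682 to 0.233), Wdr24 (0.0919 to 0.24) and Nprl3 (0.0801 to 0.252) were lost with any 1 library left out, and that of Nup44A without mutant replicate 1 (0.086), control replicate 1 (0.191) or control replicate 2 (0.244). These were small changes that depended on scaling, since with median-ratio scaling 1 gene of the list, Sec13, was called lower (adjusted p = 0.0366), and with a library left out between 0 and 2 were. The call of Sec13 was lost with no filter on low values (0.0626) and without mutant replicate 1 (0.103), control replicate 1 (0.104) or control replicate 2 (0.19).

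Of 14 tested genes of insulin and energy input 4 fell and 0 rose by limma, with 1 (melt) higher at an unadjusted p under 0.05, 2 (melt and AMPKalpha) higher with median-ratio scaling and 4 (InR, Pdk1, melt and AMPKalpha) higher in the authors' deposited table. These were named after their values were seen. Pi3K21B, the regulatory subunit of phosphoinositide 3-kinase, fell to 14.2 ± 0.332 TPM in mutant discs, against 24.99 ± 0.495 TPM in control discs (log2 fold change -0.77, limma adjusted p = 0.00622). scyl and chrb, the fly REDD homologues that restrain TORC1, had 138 ± 9.23 and 17.7 ± 0.813 TPM in mutant discs, against 255 ± 49.5 and 31.0 ± 8.49 TPM in control discs (log2 fold changes -0.87 and -0.75, limma adjusted p = 0.0126 and 0.0334). The list thus held both promoters and inhibitors of TORC1 among the genes that fell. Between 0 and 2 genes were called lower with a library left out. The call of Pi3K21B was lost without control replicate 1 (adjusted p = 0.0722) or 2 (0.0664), and those of scyl and chrb held without control replicate 2 alone (0.0345 and 0.0401). The call of chrb was also lost with median-ratio scaling (0.0762), a common sum (0.0508) and no filter on low values (0.0853), which left 3 genes of the list lower in each.

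Genes whose products or expression TOR controls moved in both directions. Of 12 tested genes 3 rose and 6 fell, with a median log2 fold change of -0.30. Thor encodes the 4E-BP, which binds eIF4E and limits translation when TORC1 is inactive. It had 152 and 101 TPM in mutant libraries, against 32.9 and 26.6 TPM in control libraries. The groups did not overlap, although the mutant libraries differed more between themselves than the control libraries. Its log2 fold change was 2.04 (SE 0.23, limma adjusted p = 0.00299), and its call held without each library (adjusted p from 0.0219 to 0.0325). The other 2 that rose were Lpin and SREBP, both genes of lipid metabolism and named after their values were seen (log2 fold changes 0.59 and 0.55, limma adjusted p = 0.0137 and 0.0173). Their calls were lost without control replicate 1 (0.124 and 0.133) or 2 (0.0906 and 0.12), and that of Lpin also without mutant replicate 1 (0.0652). Maf1, a repressor of RNA polymerase III, fell to 49.6 ± 1.7 TPM in mutant discs, against 82.2 ± 2.33 TPM in control discs (log2 fold change -0.72, limma adjusted p = 0.00665). Atg13, of the autophagy kinase complex, fell to 14.6 ± 1.47 TPM in mutant discs, against 25.1 ± 0.177 TPM in control discs (log2 fold change -0.74, limma adjusted p = 0.00927). Mitf, the regulator of lysosomal genes, fell to 32.8 ± 1.02 TPM in mutant discs, against 52.3 ± 2.85 TPM in control discs (log2 fold change -0.66, limma adjusted p = 0.00939). The calls of Maf1, Atg13 and Mitf were lost without control replicate 1 (adjusted p = 0.0794, 0.0816 and 0.0983) and without control replicate 2 (0.0689, 0.0859 and 0.0765). Between 1 and 3 genes of this list were called higher with a library left out, and between 0 and 5 lower.

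REPTOR and REPTOR-BP are bZIP proteins, a family that includes several stress-responsive factors. Of 17 other bZIP genes tested 9 rose and 1 fell, with a median log2 fold change of 0.46. The one that fell was CrebA (log2 fold change -0.76, limma adjusted p = 0.0422), named after its value was seen, and its call held only without mutant replicate 2 (0.0297) among the libraries left out. It was also lost with median-ratio scaling (0.0633), a common sum (0.061), no filter on low values (0.103) and a constant prior variance (0.0589). tj and Mabi were listed at 0 in all 4 libraries. The 9 include slbo, at 1.93 and 2.42 TPM in mutant libraries against 0.49 and 0.18 TPM in control libraries, which passed the filter on low values only through the mutant libraries. With a mean of at least 5 TPM required, 8 were called higher. This list, like the others, was chosen with earlier results of these data known. Xrp1, which is induced in cells with ribosome defects, had 660 and 690.1 TPM in mutant libraries, against 255 and 247 TPM in control libraries (log2 fold change 1.42, limma adjusted p = 0.000765). Its partner Irbp18 had 164 and 143 TPM in mutant libraries, against 44.5 and 40.3 TPM in control libraries (log2 fold change 1.83, limma adjusted p = 0.000734). kay, the fly Fos, had 189 and 173 TPM in mutant libraries, against 69.6 and 53.9 TPM in control libraries (log2 fold change 1.55, limma adjusted p = 0.0023). Atf3 had 15.6 and 13.9 TPM in mutant libraries, against 6.26 and 6.33 TPM in control libraries (log2 fold change 1.11, limma adjusted p = 0.00375). In each of these 4 genes both mutant libraries stood above both control libraries, as for 25.1% of tested genes, and each call held with any single library left out. The 4 were named for the smallest p of the list, a choice that favours such results. With a library left out, between 4 and 6 bZIP genes were called higher.

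**Figure D4:**
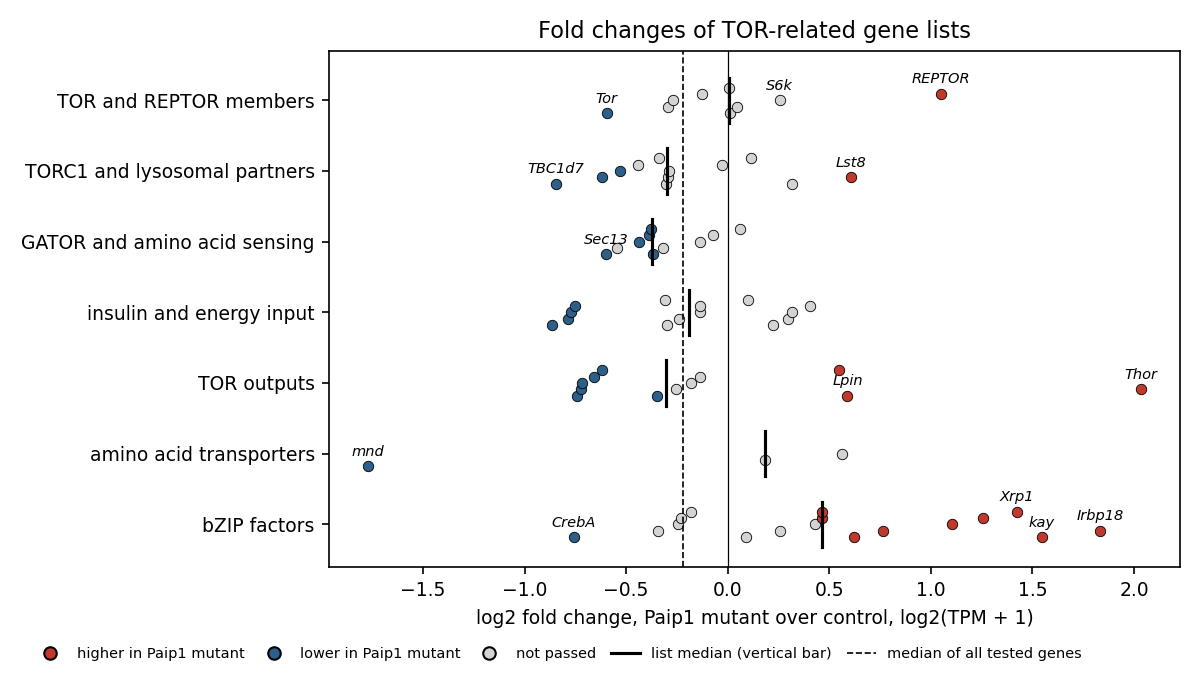
Log2 fold change of Paip1 mutant over control for every tested gene of each list, 1 point per gene, red where higher, blue where lower and grey where not passed, with list medians as vertical bars and the median of all tested genes dashed. The median was 0.46 for bZIP factors, 0.01 for the 9 TOR and REPTOR genes and -0.37 for GATOR and amino acid sensing genes.

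Genes with the pattern most like those of REPTOR and Tor were found by the distance between profiles of log2(TPM + 1) over the 4 libraries, each centred on its control mean. For REPTOR they were Oct-TyrR (distance 0.0285), CG4440 (0.042) and CG34396 (0.0423). These were transcripts of low level, between 1 and 1.31 TPM in mutant libraries and at most 0.09 TPM in control libraries. They passed the filter on low values only through the mutant libraries. With the pseudocount of 1 such values gave log2 fold changes between 1.05 and 1.07, so the likeness holds on that log scale and not in fold. For Tor they were CG4324 (distance 0.0391), eIF5 (0.047) and LanB1 (0.048), whose levels in mutant discs were 0.64, 0.67 and 0.67 times those in control discs. With 4 libraries in 2 groups such a likeness is shared by many genes.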

How the data were processed

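Trizol RNA was sequenced on Illumina HiSeq, per the labels. The authors deposited 1 table with a value per gene and library, whose header names no unit. The deposited values were read as TPM, made by the authors with length and library scaling. RSEM is named in the submitters' processing notes, and the values hold decimals and add up to nearly the same sum in each library. These sums were lower in the mutant, at 919460 and 936038 in mutant libraries against 995750 and 996531 in control libraries. Further columns deposited by the authors hold their own comparison: a fold ratio, its log2, a p-value and its adjusted form. FastQC, TopHat, DESeq and build dm6 are also named in the submitters' processing notes, with no version or role. Read depth is unknown, so precision rests on 2 libraries per group. Nothing says that these came from separate cultures or larvae, and p-values then measure a spread that may be technical. No 2 libraries held the same values (correlation 0.978 in the mutant pair and 0.984 in the control pair).

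Genes that reached 1 TPM in 2 or more libraries were tested on log2(TPM + 1), two-sided, with limma 3.58.1 (R 4.3.3) and moderated variances that follow the mean. The pseudocount of 1 understates changes of low genes. Names, positions and overlaps came from Ensembl annotation 115 (dm6). The ID of S6k is not in that annotation and was found by its symbol. Of the fixed lists, unmet had no match. Named genes were the 9 members, Paip1 and, per list, up to 4 genes past the threshold by smallest p, of which 1 is not reported here. The members and lists were chosen with earlier results of these data known. Tables and plots were made with Python 3.11.15, and the test was tried on simulated data. Alternatives were 2 scalings, another pseudocount, 2 filters, a constant prior variance, a replicate block and leaving out each library.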

Additional observations from a re-analysis of the deposited data

How the results depend on the processing

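Direction and side of the threshold were kept in 88 of 99 combinations of the 9 genes and 11 alternatives. REPTOR was called higher in all 11 (adjusted p from 0.0013 to 0.0453). Tor stayed lower in all 11 and was called in 7, the exceptions being each library left out. The members called higher numbered 2 with median-ratio scaling and 2 with a common sum, where S6k joined REPTOR, against 1 otherwise. The members called lower numbered 0 with any library left out. Signs of genes that never passed turned for rictor with median-ratio scaling (0.0392), and with a library left out for Tsc1 (-0.0514 to 0.0688), gig (-0.0763 to 0.0956) and REPTOR-BP (-0.0681 to 0.164). The cause was not tested. Over all genes 1346 were higher and 2506 lower. With a library left out these counts ran from 607 to 1089 and from 406 to 2184. Higher calls were 34.9% of all calls on the TPM scale, 50.1% with median-ratio scaling, 44.4% with a common sum and 47.4% with no filter on low values. With the replicate number as a block 1403 genes were higher and 2843 lower, and REPTOR (adjusted p = 0.00432) and Tor (0.0167) kept their calls. The labels share a number but name no pairing, and same-numbered libraries deviated together weakly (correlation 0.0648 over 8605 genes). DESeq2 was not run, since the table holds no counts. TPM keeps no depth, so counting error could not be given.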

Other observations

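Amino acid transporters, which feed the supply that TORC1 senses, differed among themselves. Of 5 listed genes 3 were tested. mnd, a light-chain type transporter gene, had 6.32 and 10.2 TPM in mutant libraries, against 30.1 and 29.6 TPM in control libraries (log2 fold change -1.77, limma adjusted p = 0.00415), and it was called lower without each library in turn. path had 68.3 and 94.6 TPM in mutant libraries, against 56.1 and 52.2 TPM in control libraries (log2 fold change 0.56, limma adjusted p = 0.0519), and was named after its values were seen. JhI-21 had 58.9 and 58.9 TPM in mutant libraries, against 53.2 and 50.2 TPM in control libraries (log2 fold change 0.19, limma adjusted p = 0.197), also named after its values were seen. With median-ratio scaling path and JhI-21 were both called higher (limma adjusted p = 0.0149 and 0.0384), and the authors' deposited table had 2 of the list higher and 1 lower. The slif and CG1139 transcripts were under 1 TPM in all 4 libraries.

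The log2 fold change in the authors' deposited table exceeded the log2 ratio of the TPM means by a nearly fixed amount, with a median of 0.171 and quartiles of 0.165 and 0.180 over 8531 genes. For REPTOR the difference was 0.0782, and 3.84% of these genes had a smaller one. For raptor it was 0.2, with 88.7% smaller. For the other 7 genes it lay between 0.153 and 0.173. REPTOR has 7 annotated transcripts and raptor shares exons with Mipp2, and whether these bear on the difference was not tested.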
